A study of Rattus norvegicus with 2 samples.

Results

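The genes described here are those of the vacuolar proton pump (V-ATPase) and of renal intercalated cells, measured in kidneys of pioglitazone-treated and vehicle-treated PCK rats. They were taken by symbol: every gene whose symbol begins with Atp6v, together with Foxi1, Slc4a1, Slc4a9, Slc26a4, Slc26a7, Rhcg, Rhbg, Hepacam2, Car2, Car4, Car12, Aqp6, Atp12a, Atp4a, Kit and Dmrt2. This gave 37 genes read by 45 probes, out of 13435 genes that the arrays name, and 35 of the 37 were measured. A gene counted as measured when neither array had its brightest probe saturated or short of the software's limit for a signal well above background, which held for 10480 of the named genes. Probes map to genes through RefSeq accessions, and no probe mapped this way to Atp6v0a4.

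The animals were female PCK rats, an orthologous rat model of autosomal recessive polycystic kidney disease that carries a Pkhd1 mutation, so both groups share the cystic genotype. The treated group was gavaged each day with 10 mg/kg of pioglitazone, a PPAR-gamma agonist, between the ages of 4 and 20 weeks. Control rats were gavaged with the vehicle, 0.5% DMSO. Total kidney RNA was pooled within each group, from 5 females by the design text and from 3 rats by the labelling text, and each pool was hybridised to 1 one-colour Agilent array. Wild-type animals are not analysed here. With 1 array per group no difference below has a replicate check, no p-value was computed, and the spread between animals is unknown. Because whole kidney was measured, more cells of a type and more RNA per cell cannot be told apart.

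The V-ATPase is a rotary pump in which the peripheral V1 sector hydrolyses ATP and the membrane V0 sector carries protons. All cells use it to acidify lysosomes and endosomes, while intercalated cells of the connecting tubule and collecting duct also place it in the plasma membrane to move acid into urine or blood. These cells use tissue-restricted isoforms of some subunits, such as B1 and G3, in place of or beside the isoforms found everywhere. Type A intercalated cells secrete acid and return bicarbonate to blood through the anion exchanger AE1 (Slc4a1), and type B cells secrete bicarbonate through pendrin (Slc26a4). The forkhead factor Foxi1 is needed for their differentiation.

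RefSeq promoter windows, which run from 250 bases before to 50 bases after the annotated start on the GRCr8 build, were matched for 29 of the 37 genes. They are shown for 2 kidney-specific and 2 ubiquitous subunits, classes compared below, that were chosen because they hold a match to a searched motif. Capitals mark the letters TGTTTAC for Atp6v1b1 and TGTTTA for Atp6v1g3, which are forkhead core sequences, and TCACGTGA for Atp6v0d1 and Atp6v0e1, an E-box of the form bound by the lysosomal regulator TFEB.
Atp6v1b1, chr4:117781194-117781493, plus strand: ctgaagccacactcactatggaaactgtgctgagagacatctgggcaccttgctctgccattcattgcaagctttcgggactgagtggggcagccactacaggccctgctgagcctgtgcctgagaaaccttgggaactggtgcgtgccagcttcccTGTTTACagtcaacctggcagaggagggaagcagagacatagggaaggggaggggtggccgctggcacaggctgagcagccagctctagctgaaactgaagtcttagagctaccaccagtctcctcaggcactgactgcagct
Atp6v1g3, chr13:52362082-52362381, plus strand: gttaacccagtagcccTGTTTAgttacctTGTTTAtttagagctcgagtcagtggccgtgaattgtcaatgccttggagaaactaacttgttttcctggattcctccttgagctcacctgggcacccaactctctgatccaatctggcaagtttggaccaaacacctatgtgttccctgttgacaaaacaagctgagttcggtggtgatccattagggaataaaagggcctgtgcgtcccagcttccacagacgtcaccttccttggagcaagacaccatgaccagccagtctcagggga
Atp6v0d1, chr19:50357199-50357498, minus strand: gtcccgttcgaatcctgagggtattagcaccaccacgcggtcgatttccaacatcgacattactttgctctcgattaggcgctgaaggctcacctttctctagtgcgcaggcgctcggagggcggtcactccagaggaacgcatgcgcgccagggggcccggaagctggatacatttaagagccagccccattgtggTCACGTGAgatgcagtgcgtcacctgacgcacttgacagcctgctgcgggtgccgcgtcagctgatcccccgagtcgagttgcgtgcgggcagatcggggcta
Atp6v0e1, chr10:17007107-17007406, minus strand: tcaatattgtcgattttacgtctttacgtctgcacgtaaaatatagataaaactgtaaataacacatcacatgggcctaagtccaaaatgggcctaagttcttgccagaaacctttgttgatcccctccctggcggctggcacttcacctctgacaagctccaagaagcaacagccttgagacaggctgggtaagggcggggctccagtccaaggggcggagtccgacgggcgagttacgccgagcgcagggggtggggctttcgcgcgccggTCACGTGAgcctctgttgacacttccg
Both strands were searched. TGTTTAC was present in 1 of 30 member windows (Atp12a has 2 windows), against 3.78% of all 33469 windows in the table, and in Atp6v1b1 it begins 93 bases before the start. The shorter TGTTTA, which is contained in TGTTTAC, was present in the windows of Atp6v1b1, Atp6v1g3 and Car12 and in 13.7% of all windows. TCACGTGA, which contains the E-box CACGTG, was present in 2 member windows and in 0.777% of all windows. CACGTG alone was present in the windows of Aqp6, Atp6v0d1 and Atp6v0e1 and in 6.42% of all windows. CpG dinucleotides numbered 3 in the Atp6v1b1 window and 5 in that of Atp6v1g3, while the third kidney-specific window, Atp6v1c2, held 27. The 11 ubiquitous windows had a median of 16 CpGs, from 5 in Atp6v0b to 27 in Atp6v0d1, and the median of all windows was 7. A match describes these letters and is no evidence of binding.

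Signals of the V-ATPase and intercalated cell genes lay slightly above those of vehicle with pioglitazone in nearly every member. The difference, pioglitazone minus vehicle on the log2 scale after each array was scaled to its 75th percentile, was above 0 in 33 of the 35 measured members, where 56.2% of all measured genes were above 0. The median difference was 0.20 for the members and 0.03 for all measured genes. At a fold change of 1.2 or more, 8 members were higher, against 8.22% of all measured genes, and 0 were lower, against 11.1%. Without scaling between the arrays 17.4% of all measured genes were higher and 6.95% lower, and with median scaling 13.4% and 8.18%. At 1.5-fold, 1 member was higher, against 0.84%, and 0 were lower, against 1.87%. The members that reached 1.2-fold were Atp12a, Atp6v1h, Hepacam2, Foxi1, Atp6v0a2, Atp6v1b1, Atp6v0a1 and Rhcg. The lowest of these was Rhcg at 0.28, and Atp6v0d1 at 0.26 lay just short of the limit.

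**Figure D1:**
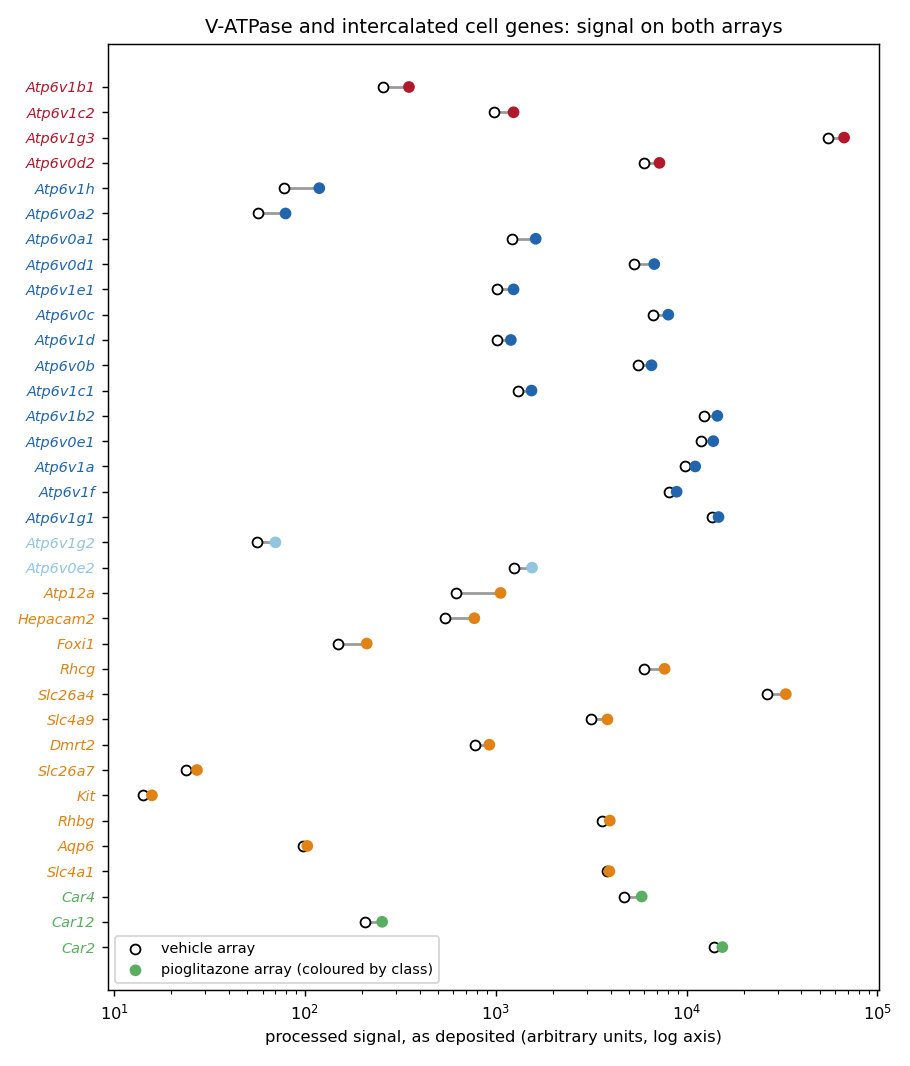
Processed signal of the 35 measured members on a log axis, with the vehicle array as open circles and the pioglitazone array as filled circles coloured by class (red, kidney-specific subunits; blue, ubiquitous subunits; light blue, isoforms of other tissues; orange, intercalated cell transporters and factors; green, carbonic anhydrases). Signals ran from 14.2 (Kit, vehicle) to 66900 (Atp6v1g3, pioglitazone) before scaling, and scaling removes a shift of 0.08 on the log2 scale in favour of the pioglitazone array.

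The error of a single difference bounds what these values can carry. The scanner software's error, combined over both spots, was 0.20 for most members and also at the median of all measured genes. It is the software's own value and was nearly constant for bright spots. A limit of 2 times that error therefore acts much like a fixed cutoff of 0.408 and is no measured confidence limit. By this limit 4 members lay above 0, against 1.77% of all measured genes, while 0 lay below, against 3.85%. Those 4 were Atp12a, Atp6v1h, Hepacam2 and Foxi1. With normexp background correction, a model-based alternative applied to the raw spot signals, Atp12a was the one of the 4 that stayed past that limit, at 0.56. Each member probe was printed once. Probes printed 10 times gave a smaller spot noise, with a median SD of 0.07 for the difference between arrays over 203 such probes. That SD was 0.20 for probes with signals below 50 and 0.05 for those above 5000 at the median, although the largest SD of a single probe, 1.85, was in the brightest class.

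**Figure D2:**
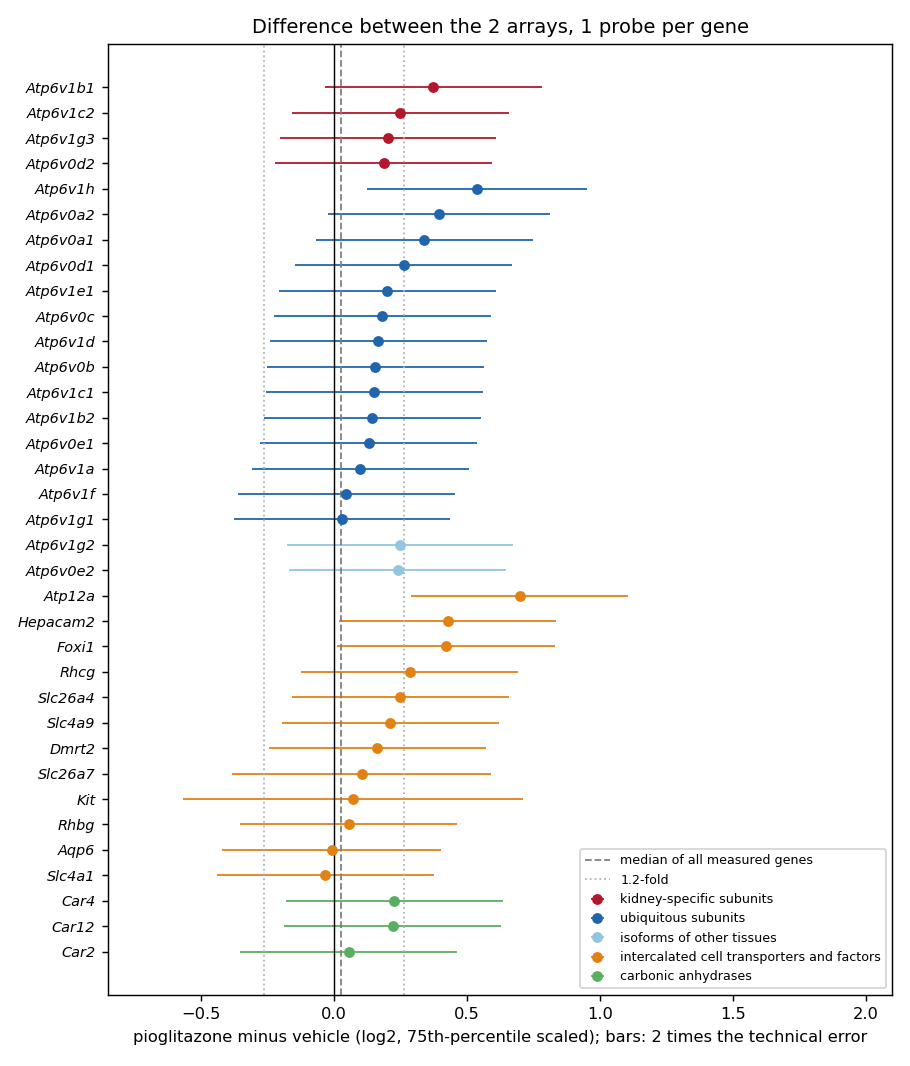
Difference of each measured member on the log2 scale, with bars of 2 times the technical error, grouped by class. The dashed line is the median of all measured genes (0.03) and the dotted lines are 1.2-fold. The points lie almost all to the right of 0 and the bars of 4 genes exclude it. The bars come from the software's error, which was nearly constant for bright spots, and are no confidence limits.

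The kidney-specific subunits all had differences above 0, and 1 of the 4, Atp6v1b1, was higher by 1.2-fold, against 8.22% of all measured genes. Atp6v1g3, the G3 stator subunit, had 54900 on the vehicle array and 66900 on the pioglitazone array, a difference of 0.20. Its spot and that of Slc26a4 carry, on at least 1 array, the software's flag for a value scaled up from a low-gain scan. Atp6v1b1, the B1 subunit of the catalytic head whose loss causes distal renal tubular acidosis with deafness, had signals of 256 and 351 and a difference of 0.37. Atp6v1c2, the C2 subunit that links head and stator, had 985 and 1240 (0.25). Atp6v0d2, the d2 subunit of the V0 rotor stalk, which osteoclasts and macrophages also express, had 5980 and 7210 (0.19). The pioglitazone value was the higher in each of these 4 genes, and the median difference was 0.23. Macrophage markers went the other way. Of 9 measured markers 9 were below 0 and 7 were lower by 1.2-fold, against 11.1% of all measured genes. The 9 markers had a median of -0.36, with Cd68 (-0.43), Csf1r (-0.14), Gpnmb (-0.61) and Itgam (-0.77) among them. Their summed signal was 25000 on the vehicle array and 21700 on the scaled pioglitazone array, and their part in the Atp6v0d2 value was not tested.

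The ubiquitous subunits were also above 0. Of the 14, 3 were higher by 1.2-fold, Atp6v1h, Atp6v0a2 and Atp6v0a1, against 8.22% of all measured genes. All 14 differences were positive, with a median of 0.16 and a range from 0.03 to 0.54, although Atp6v1g1 and Atp6v1f were at -0.02 and -0.005 with cyclic loess and also below 0 with quantile normalization. In the V1 head, the catalytic A subunit (Atp6v1a) had 9790 and 11100 (0.10) and its partner B2 (Atp6v1b2) had 12400 and 14500 (0.14). The central stalk was represented by Atp6v1d with 1010 and 1200 (0.17) and Atp6v1f with 8120 and 8870 (0.05). Among the stator subunits Atp6v1e1 had 1020 and 1240 (0.20), Atp6v1g1 had 13600 and 14700 (0.03) and Atp6v1c1 had 1310 and 1540 (0.15). The regulatory subunit H (Atp6v1h) stood at the upper end with 77.4 and 119, a difference of 0.54. With normexp correction its difference was 0.14, near the middle of the class.

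In the membrane sector the proteolipids Atp6v0c and Atp6v0b had 6680 and 8020 (0.18) and 5560 and 6550 (0.15). The stalk subunit Atp6v0d1 had 5330 and 6770 (0.26), and Atp6v0e1, a small membrane subunit, had 11900 and 13800 (0.13). The a subunits form the proton half-channels and direct the pump to its membrane. Atp6v0a1 had 1210 and 1620 (0.34), and Atp6v0a2 had 56.9 and 79.2 (0.39). Of the ubiquitous genes, 8 in V1 had a median of 0.15 and 6 in V0 a median of 0.22. Across the 14 ubiquitous subunits dimmer probes had larger differences, with a Spearman's rho of -0.85 between signal and difference, whereas rho was 0.12 over all 10480 measured genes. These points share 2 arrays and are no independent replicates.

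The kidney-specific isoform was the higher of the pair in 3 of 4 comparisons with its ubiquitous counterpart. B1 exceeded B2 by 0.23 on the log2 scale of differences, G3 exceeded G1 by 0.17, C2 exceeded C1 by 0.10, and d2 lay below d1, at -0.08. The last contrast turned sign among the alternative settings, from -0.08 to 0.008. The technical error of each such contrast was 0.29, so none of the 4 contrasts exceeded it. The difference between the class medians was 0.07. The noise of single spots was of about that size, but no error was computed for a difference of medians. The range of the kidney-specific subunits (0.19 to 0.37) lay within that of the ubiquitous ones, and both class medians were above 0.

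**Figure D3:**
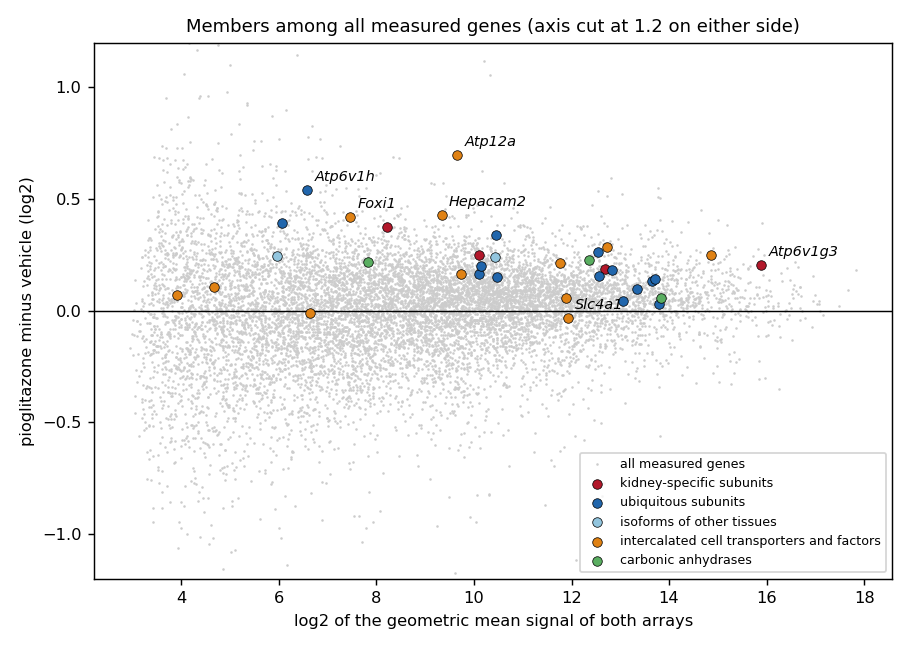
Difference (log2) against the log2 geometric mean signal for all 10480 measured genes (grey) and the members (coloured by class), with differences beyond 1.2 on either side not shown. Most members lie above the middle of the grey cloud, with exceptions such as Slc4a1, Aqp6, Atp6v1g1 and Atp6v1f, and Atp12a stands highest among the members.

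The position above the other genes was present in each class of signal that holds more than 2 members. Among genes with a mean signal of 5000 or more, all 14 members were above 0, where 70.8% of 1312 genes were, and their median was 0.17 against 0.06. Between 500 and 5000, 11 of 12 members were above 0, against 60.8% of 3602 genes, with medians of 0.21 and 0.04. Between 50 and 500, 6 of 7 were, against 50.9% of 3592 genes, with medians of 0.37 and 0.004. Below 50 there were 2 members, Kit and Slc26a7.

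Isoforms typical of other tissues were dim or similar to the rest. Atp6v0e2, a membrane subunit prominent in brain, had 1240 and 1550 (0.24), and Atp6v1g2, a neuronal stator subunit, had 55.8 and 70.1 (0.25). The testis isoform Atp6v1e2 was not well above background on either array.

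Several subunits were read by more than 1 probe, and these did not always give the same difference. The 3 probes of Atp6v1a, with vehicle signals of 9790, 988 and 122, gave 0.10, 0.11 and 0.12. For Atp6v1b2 a second probe gave 0.22 beside 0.14. In contrast, Atp6v0a1 was at 0.34 by its brighter probe and 0.04 by its dimmer one (149 and 162). Atp6v0a2 was at 0.39 by the brighter probe, whose spot carries a background flag on at least 1 array, and at -0.05 by the other (17.6 and 18.0). With normexp correction its brighter probe was at 0.17. Atp6v1g2 was at 0.25 and -0.11, the latter from signals of 22.5 and 22.0, and the brighter probe was at 0.004 with normexp. Of the 6 members with several measured probes, 4 had all probes on the same side of 0. The RefSeq gene table lists pseudogenes of Atp6v0c, Atp6v1a, Atp6v1e1 and Atp6v1g1, and whether their probes also bind such transcripts was not examined.

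Among the transcription factors and identity markers of intercalated cells, Foxi1 and Hepacam2 were higher by 1.2-fold. Foxi1 had 149 and 211, a difference of 0.42 (fold 1.34), and 0.29 with normexp correction, which is less than 2 times its technical error. Hepacam2, a membrane protein that marks intercalated cells, had 543 and 773, a difference of 0.43, and 0.39 with normexp correction, also less than 2 times its technical error. Dmrt2, a transcription factor of type A cells, had 781 and 926 (0.16). Kit, a receptor tyrosine kinase found in intercalated and mast cells, was dim at 14.2 and 15.8 (0.07). Among mast cell markers 6 were measured and 1 of these was above 0, around a median of -0.10. Cma1 was at -0.59, Mcpt1 at -0.32 and Tpsab1 at -0.08. Their list had a summed signal of 2340 on the vehicle array and 2200 on the scaled pioglitazone array. The defining mast cell genes Cpa3, Fcer1a and Ms4a2 were not well above background on either array.

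The type B exchangers among the members had differences above 0 that did not reach 1.2-fold. Pendrin (Slc26a4), the apical chloride/bicarbonate exchanger, had 26300 and 33100 (0.25), and Slc4a9, the basolateral anion exchanger AE4, had 3140 and 3850 (0.21). Slc4a8, a sodium-driven chloride/bicarbonate exchanger that works beside pendrin in type B cells and is not a member, was lower by 1.2-fold, with a difference of -0.51. By the brightest probe of each gene, the transporters found in type A cells that are named next lay between -0.03 and 0.28. The ammonia channel Rhcg had 5950 and 7670 (0.28), while its basolateral relative Rhbg had 3600 and 3960 (0.06). The chloride/bicarbonate exchanger Slc26a7 had 23.9 and 27.2 (0.10), and the intracellular water channel Aqp6 had 97.9 and 103 (-0.009). AE1 (Slc4a1) was the lowest of all members, with 3810 and 3940 (-0.03) by its brighter probe and 94.2 and 87.7 (-0.19) by the other. Slc4a1 is also the band 3 protein of red cells, and erythroid markers had a median of -0.37 over 7 measured genes. Of these 7 genes 6 were below 0 and 5 were lower by 1.2-fold, against 11.1% of all measured genes. Ahsp was at -0.97, Alas2 at -0.56 and Hbb at -0.47, and the summed erythroid signal was 4090 on the vehicle array and 2910 on the scaled pioglitazone array. The part of erythroid RNA in the Slc4a1 value was not tested.

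The largest difference in the set was that of an H+/K+-ATPase. Atp12a, the non-gastric alpha subunit that reabsorbs potassium in exchange for protons in the collecting duct, had 617 and 1060, a difference of 0.70 (fold 1.62), which placed it above 99.6% of measured genes. Atp4a, the gastric alpha subunit, was not well above background by either probe on either array. Atp4b, the gastric beta subunit, was dim at 18.4 and 20.7 (0.09), and the parietal cell gene Cblif was not well above background.

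Carbonic anhydrases supply protons and bicarbonate to these transporters and are not restricted to intercalated cells. Cytosolic Car2, which proximal cells share, had 14000 and 15400 (0.06). The membrane-bound Car4 of the proximal tubule and Car12 had 4700 and 5820 (0.23) and 206 and 254 (0.22).

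The 12 measured intercalated cell transporters and factors had a median of 0.19. A further list of intercalated cell genes outside the set gave a median of 0.17 over 13 measured genes, with 9 above 0. At 1.2-fold 2 genes of this list were higher and 1 lower, against 8.22% and 11.1% of all measured genes. Its largest differences were those of Slc4a8 (-0.51), the potassium channel Kcnj16 (0.32) and the barttin gene Bsnd (0.27), and the transcription factor Tfcp2l1 was at 0.14 and the adhesion receptor Adgrf5 at 0.17. Of 14 partners and assembly factors of the pump 3 were measured and all were above 0: the accessory subunit Atp6ap1 (0.05), Rogdi (0.11) and Tmem199 (0.28). These lists were chosen with earlier results of these data known.

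Other lists placed the members among their neighbours. Lysosomal genes, which share the ubiquitous pump, had a median of 0.05, with 15 of 22 genes above 0. At 1.2-fold 1 was higher, Glb1 (0.28), and 1 lower, Scarb2 (-0.39), against 8.22% and 11.1% of all measured genes. The lysosomal membrane proteins Lamp1 and Lamp2 were at 0.18 and 0.06. Principal cells are the neighbours of intercalated cells in the collecting duct. Of 9 measured markers of principal cells, 4 were above 0 and 4 were lower at 1.2-fold, against 11.1% of all measured genes. The median of these markers was -0.08. The water channels Aqp2 (-0.34), Aqp3 (-0.29) and Aqp4 (-0.32) and the transcription factor Gata3 (-0.43) were lower, whereas Hsd11b2 (0.19), Kcnj1 (0.24) and the sodium channel subunits Scnn1b (0.12) and Scnn1g (0.19) were above 0 but short of 1.2-fold. The summed signal of principal cell markers was 97200 on the vehicle array and 97100 on the scaled pioglitazone array. The proximal tubule list, with Lrp2 and Slc34a1 at 0.03 and Ggt1 (0.27), Slc22a8 (0.25) and Cubn (0.23) at the upper end, had 9 of 10 genes above 0 and a median of 0.12. Among 6 measured genes of the thick ascending limb, Egf was at 0.22 and Umod at 0.09, around a median of -0.001. In the distal convoluted tubule list 2 genes were measured, Slc12a3 (0.26) and Wnk1 (0.13). As a check of the tissue, the kidney markers Umod (195000 and 220000) and Lrp2 (52900 and 57100) were bright on both arrays.

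**Figure D4:**
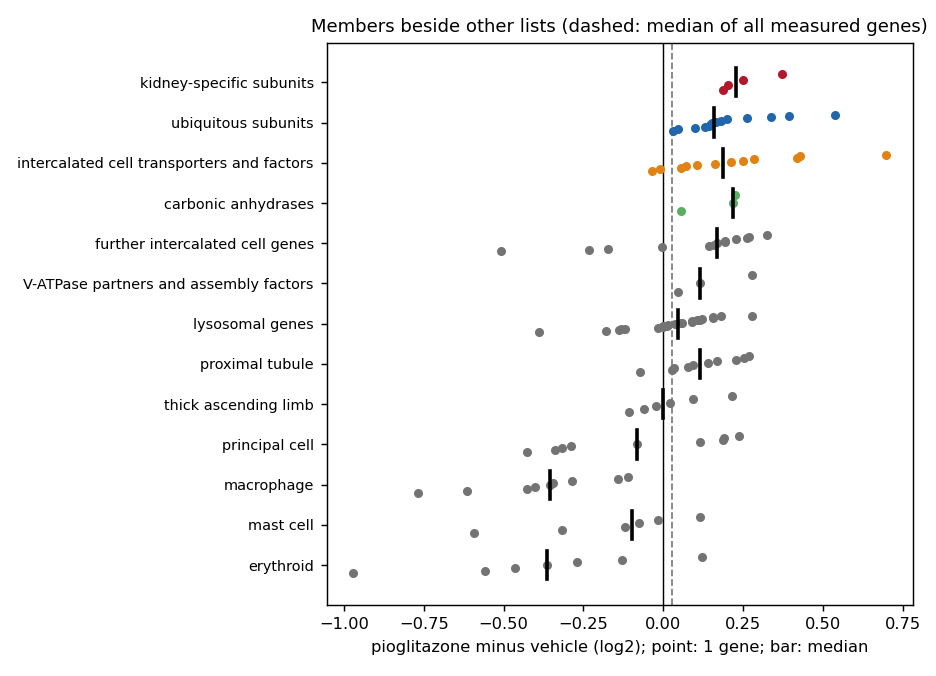
Differences (log2) of each measured gene in the member classes (coloured) and in other lists (grey), with the list median as a black bar and the median of all measured genes as a dashed line. The 4 member classes plotted, without the isoforms of other tissues, lie between 0.16 and 0.23 at the median, lysosomal genes at 0.05 and macrophage and erythroid markers below -0.3.

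All 3 class medians were positive under each of 11 alternative settings. The median of the kidney-specific subunits lay between 0.18 and 0.31, and that of the ubiquitous subunits between 0.12 and 0.24. That of the intercalated cell transporters and factors lay between 0.16 and 0.27. Of the 35 members, 30 kept their sign under every setting in which they had a value, among them Car2, which was at 0.0001 with cyclic loess. The other 5 were Aqp6, Atp6v0a2, Atp6v1f, Atp6v1g1 and Slc4a1. Atp12a, Hepacam2, Foxi1 and Atp6v1b1 remained at or above 1.2-fold under each setting that kept their spot.

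**Figure D5:**
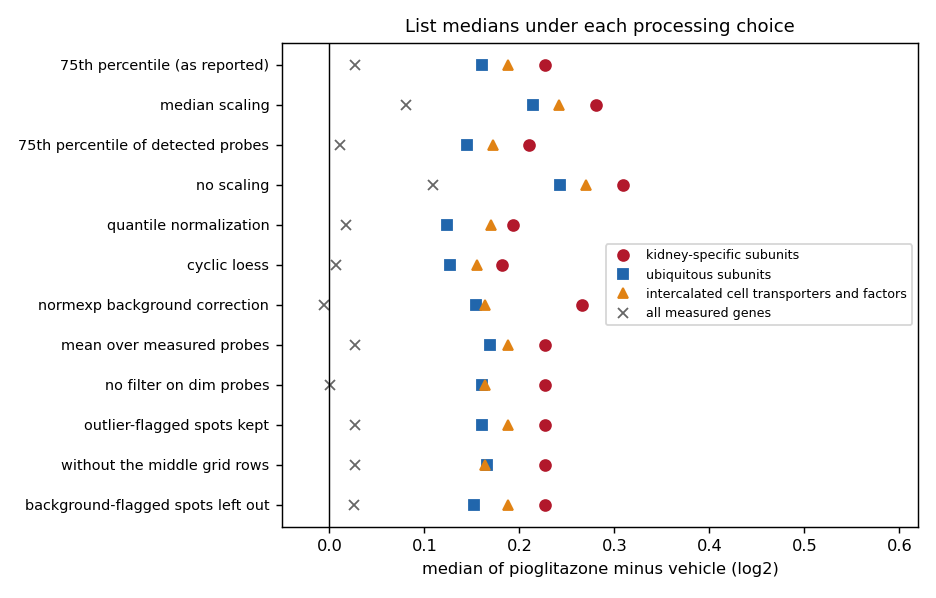
Median difference (log2) of the kidney-specific subunits, the ubiquitous subunits and the intercalated cell transporters and factors, and the median of all measured genes (crosses), under each processing choice. The 3 class medians lie to the right of the crosses in every row, and the kidney-specific median is the highest in each.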

How the data were processed

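Cy3-labelled kidney RNA of 1 vehicle and 1 pioglitazone pool of PCK rats was read on 1 array each. The deposited intensity values were made with Agilent Feature Extraction 10.7.3.1 per the submitters' processing notes. Per the file headers, it ran a one-colour protocol on the extended-range scan of each array. The series' value table equals these intensities at all 45018 features (column medians 46.8 and 47.7). The scanner files name the rn4 build, so no probe coordinates are given.

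Of 43379 non-control spots per array, 71.8% (vehicle) and 73.1% (pioglitazone) were well above background and 0 were saturated; 149 with an outlier flag on a spot were left out. Signals were scaled by the 75th percentile of their array and put on a log2 scale. Replicate spots were averaged, and a gene took its brightest probe. Probes were named through RefSeq accessions without versions (GRCr8 gene table), which named 16959 of 40998 probes. The technical error combines both spots' software errors. No test was run, since the number of arrays limits the precision. Every member was named, and of the other lists the first 2 genes and up to 3 with the largest difference; further genes of those lists were named after their values were seen. Members, lists and alternatives were chosen with earlier results of these data known. limma 3.58.1 in R 4.3.3 gave the quantile, cyclic loess and normexp (offset 50) alternatives. The gene summary was tested on simulated data. Mean spot signals were not used here, so normexp took the median signals.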

Additional observations from a re-analysis of the deposited data

How the results depend on the processing

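Settings were changed one at a time: scaling to the median or to the 75th percentile of detected spots, no scaling, quantile normalization, cyclic loess, normexp, a mean over measured probes, no filter on dim probes, flagged spots kept, and leaving out the grid rows of bands 6 and 7 of 10. Leaving out spots with a background flag was added after seeing the data. All class medians stayed above 0. Without scaling they were 0.31 for kidney-specific subunits, 0.24 for ubiquitous subunits and 0.27 for intercalated cell transporters and factors, while the median of all measured genes moved to 0.11 from 0.03. Members higher by 1.2-fold, 8 as reported, numbered 16 with median scaling, where 13.4% of all measured genes were higher, and 20 without scaling, where 17.4% were. Under the other settings they numbered between 6 and 9, where between 3.3% (normexp) and 11.3% (no filter on dim probes) of all genes were higher. Without the middle rows 29 members had a value, and without the filter 37. Under any setting 0 members were lower, where between 6.08% and 13.1% of all genes were. Relative to the median of all genes, 33 members were above it as reported and 30 with cyclic loess. Without background-flagged spots Atp6v0a2 lost its brighter probe and took the value of its other probe, -0.0499. Of the alternative values of single members, 12 of 379, in 5 members, had the opposite sign to the reported value; 1 of these 5, Atp6v0a2, was higher by 1.2-fold as reported. The cause of the sign changes in the other members was not tested. The difference between the class medians of kidney-specific and ubiquitous subunits lay between 0.05 and 0.11. The left-out rows held 6 of the 35 members, Foxi1 and Atp6v1h among them, and 19.9% of measured genes. In those rows 2.73% of measured genes differed 1.5-fold either way, against 2.7% elsewhere. The 2-times-error limit was missed with normexp by Atp6v1h, Foxi1 (0.29) and Hepacam2 (0.39), by Foxi1 also with the 75th percentile of detected spots (0.4037) and by Hepacam2 with cyclic loess (0.4079, limit 0.408). Kit and Slc26a7 had signals below 50, where the median spot noise was largest. No paired analysis was possible because there was a single array of each treatment.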
